A study of Mus musculus with 25 samples.

Results

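*Dmgdh*, *Calb2* and *Trpm1* are 3 genes, of 48440 in the count table, chosen by their slope with the mutational effect score (MES). Across 15 *Ctnnb1*-mutant mouse ES cell clones, their transcript levels rose most steeply among the genes that met the conditions given below. MES is the study's reporter-based measure of how strongly a substitution activates β-catenin signaling, and it serves here as the predictor of the slopes and to order the clones, with its values not printed. The rise with MES is therefore how the genes were found, and it is described without a test.

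Bulk 3′ RNA-seq (mcSCRB-seq, in which unique molecular identifiers mark single cDNA molecules) covered 25 libraries of E14 mouse ES cells, which grow without feeders, here in serum and leukemia inhibitory factor. In all, 15 clonal lines, 1 library each, carried 1 of 11 missense mutations at codon 37, 41 or 45 of *Ctnnb1*, heterozygously knocked in by replacing a puroΔTK selection cassette, and received 0 µM CHIR99021. The other 10 libraries were unedited (WT) E14 cells treated for 48 h with 0, 2.5, 5, 7.5 or 10 µM CHIR99021, an inhibitor of the kinase GSK3, with 2 libraries per dose. Each clone is a single picked colony, so a mutation and the history of its clone cannot be told apart except where 2 clones carried the same mutation (S37F, S45F, T41A and T41I). From lowest to highest MES the mutations were T41S, S45C and T41N (low-MES, 3 clones), S45P and S45F (medium-MES, 3 clones), then S37Y, S37C, S37A, T41A, T41I and S37F (high-MES, 9 clones).

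β-catenin is the transcriptional effector of canonical Wnt signaling. GSK3 phosphorylates its N-terminal degron, which marks it for destruction, and both degron mutations and CHIR99021 let it accumulate and act with TCF/LEF factors. *Dmgdh* encodes dimethylglycine dehydrogenase, a mitochondrial enzyme of choline breakdown that passes one-carbon units to folate, and is best known from liver. *Calb2* encodes calretinin, an EF-hand calcium-binding protein used as a marker of interneurons and mesothelium. *Trpm1* encodes melastatin, a cation channel of melanocytes and retinal ON bipolar cells, where it opens at the end of the mGluR6 cascade. None of the 3 is a standard marker of undifferentiated ES cells.

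*Dmgdh* (ENSMUSG00000042102.6) lies on the plus strand at chr13:93674433-93752833 of GRCm38 (mm10). *Calb2* (ENSMUSG00000003657.8) lies on the minus strand at chr8:110137502-110168210. *Trpm1* (ENSMUSG00000030523.18) lies on the plus strand at chr7:64153835-64269775. The start of *Dmgdh* faces that of *Bhmt2*, on the opposite strand, with 130 bases between the annotated ends of the genes. *Bhmt2* encodes a homocysteine methyltransferase related to betaine-homocysteine methyltransferase, whose reaction on betaine supplies dimethylglycine, the substrate of *Dmgdh*.

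The stretch between *Bhmt2* and *Dmgdh* and the stretches before the 2 RefSeq starts of *Trpm1* are shown because they precede transcripts that moved with dose or with MES. They come from RefSeq promoter windows of GRCm38.p6, which span 250 bases before to 50 bases after a start and were present for *Dmgdh* and *Trpm1* and not listed for *Calb2*. Capitals mark matches to the M-box TCATGTG, read by MITF-family factors, and the E-box CACGTG. The second *Trpm1* stretch ends before the next annotated transcript start.
Dmgdh, chr13:93674303-93674432, plus strand: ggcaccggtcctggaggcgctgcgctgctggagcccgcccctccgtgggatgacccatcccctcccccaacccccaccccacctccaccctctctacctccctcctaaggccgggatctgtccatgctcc
Trpm1 first start, chr7:64153585-64153834, plus strand: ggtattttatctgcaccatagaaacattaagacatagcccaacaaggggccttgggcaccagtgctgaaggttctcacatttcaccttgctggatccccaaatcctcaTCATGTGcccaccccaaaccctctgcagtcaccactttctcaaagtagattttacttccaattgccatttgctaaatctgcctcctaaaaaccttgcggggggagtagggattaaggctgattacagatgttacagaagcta
Trpm1 second start, chr7:64185209-64185380, plus strand: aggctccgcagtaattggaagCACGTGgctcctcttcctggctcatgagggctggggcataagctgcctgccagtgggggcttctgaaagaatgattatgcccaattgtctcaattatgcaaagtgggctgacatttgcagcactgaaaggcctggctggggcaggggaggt

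Both strands of each window were searched for TCF/LEF letters (CTTTG followed by AT, AA, TT or TA), the M-box and the E-box. The *Dmgdh* and *Bhmt2* windows held none of them. The first *Trpm1* window held the M-box at 142 to 136 bases before the start. The second held the E-box and, on the minus strand at 69 to 63 bases before the start, CTTTGAA. Among all 32851 windows of this length, 16.9% held a TCF/LEF match, 3.77% the M-box and 7.15% the E-box, so these matches describe the letters only. GC made up 68% of the *Dmgdh* window, 73.7% of the *Bhmt2* window, and 48.3% and 57.3% of the *Trpm1* windows, against a median of 52.7% over all windows.

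*Trpm1* also hosts a microRNA, *Mir211*, whose precursor lies at chr7:64205806-64205911, in intron 6 of the 27-exon transcript, on the same strand. Its mature 5p product is shown, with its seed in capitals, because it is the regulatory RNA produced from this transcription unit. The precursor's row held 0 counts in all 25 libraries, and the library protocol reads the 3′ ends of polyadenylated transcripts.
mmu-miR-211-5p: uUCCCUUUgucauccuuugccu

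Library totals ran from 306157 to 2083398 counts, with 12399 to 16853 genes detected. Levels are given as CPM, the count scaled to the same library total. Where a library held 0 counts, up to 3 remain possible (1.44 to 9.80 CPM by library), and the intervals given for a library hold counting error alone. Mitochondrial counts split the unedited libraries into 4 with 0.485% to 0.562% and totals up to 940544, and 6 with 0.986% to 1.46% and totals from 1311779. Every dose but 7.5 µM had 1 library on each side. The clones held 1.53% to 2.52%, so clones and unedited cells differed in this share too, and its part in differences between them was not tested. *Ctnnb1* itself ran from 433 to 528 CPM in the clones and was 440 and 445 CPM in the untreated libraries; a substitution on 1 allele cannot be seen in gene counts. In bulk RNA, a change in the share of cells that express a gene and a change in RNA per cell cannot be told apart.

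The slopes with MES, per 10000 units on the log2 scale, were 1.46 ± 0.25 (SE) for *Dmgdh*, 1.40 ± 0.28 for *Calb2* and 1.34 ± 0.22 for *Trpm1*, over 15 clones. They headed 610 genes that rose at an adjusted p under 0.05, were higher in all 9 high-MES than in all 3 low-MES clones (true of 9.55% of genes tested) and averaged at least 20 CPM over the clones. The gene just outside the choice was *Cdx1*, at 1.33. Among genes of 15 to 20 CPM that met the other conditions, *Col13a1* at 1.38 (18.4 CPM) and *Ndufa4l2* at 1.35 (19.99 CPM) also exceeded the *Trpm1* slope. Genes below 15 CPM were not searched. Over all genes tested, 9.91% rose with MES at this threshold.

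*Dmgdh* was higher in the high-MES clones than in all other libraries, a gap that the choice of the genes required over the low-MES clones. Its level was 38.5 CPM in S37Y, 40.8 in S37C, 39.5 in S37A, 31.7 and 37.4 in the S37F clones G1 and H2, 16.8 and 26.8 in the T41A clones C1 and E6, and 25.6 and 23.4 in the T41I clones A6 and B9. The low-MES clones held 1.69 CPM (T41S), 0 CPM (S45C, 0 counts, which allows up to 4.53 CPM) and 8.07 CPM (T41N). Of the medium-MES clones, S45P (1.33 CPM) and S45F clone C1 (7.53 CPM) lay within the low-MES range, and S45F clone D9 (12.8 CPM) lay above it. The untreated unedited libraries had 2.72 and 2.13 CPM. Every high-MES clone exceeded every other library. The values of S45P, S45C and T41S were below both untreated values but rest on 1, 0 and 3 counts. The Wilson counting intervals of S45P and T41S reached 7.54 and 4.98 CPM, above both untreated values, as was the limit given for S45C. These clones therefore cannot be told apart from untreated cells. The high-MES mean of 31.2 ± 8.45 CPM (SD, n = 9) was 12.9 times the untreated mean of 2.42 ± 0.42 (n = 2), a ratio that rests on 5 and 2 untreated counts.

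*Calb2* also rose to its highest levels in high-MES clones, but these split widely. S37C, S37A, S37F clone H2 and T41A clone C1 held 67.9, 67.7, 75.8 and 62.9 CPM. The other 5 ran lower, with 36.4 CPM in T41A clone E6, 25.7 in S37Y, 24.8 and 24.1 in T41I clones A6 and B9, and 19.4 in S37F clone G1. All 9 lay above both untreated libraries (9.78 and 14.9 CPM). The medium-MES clones, at 9.32 CPM in S45P and 15.1 and 13.8 CPM in S45F clones C1 and D9, overlapped the untreated range. The low-MES clones fell below both untreated libraries, with 2.26 CPM in T41S, 6.03 in S45C and 2.02 in T41N, from 4, 4 and 1 counts. The Wilson 95% interval of T41S, 0.879 to 5.81 CPM, ended below both untreated values, while those of S45C and T41N reached 15.5 and 11.4 CPM.

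*Trpm1* had the widest range within the high-MES clones, 10.2 times from lowest to highest, against 3.90 for *Calb2* and 2.43 for *Dmgdh*. The 2 S37F clones led with 129 CPM (G1) and 94.0 CPM (H2), followed by T41I clone A6 with 91.5. S37C, T41I clone B9, S37A and T41A clone C1 held 44.0, 40.7, 38.0 and 30.0 CPM. S37Y and T41A clone E6, at 14.8 and 12.6 CPM, lay just below the untreated libraries (15.8 and 17.0 CPM). The 3 medium-MES clones, at 29.3 to 40.4 CPM, were all above untreated cells and above those 2 high-MES clones. The low-MES clones were lowest, with 5.08 CPM in T41S (9 counts), 4.53 in S45C (3 counts) and 6.05 in T41N (3 counts). *Trpm1* in T41S had an interval of 2.67 to 9.66 CPM, below both untreated values.

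**Figure D1:**
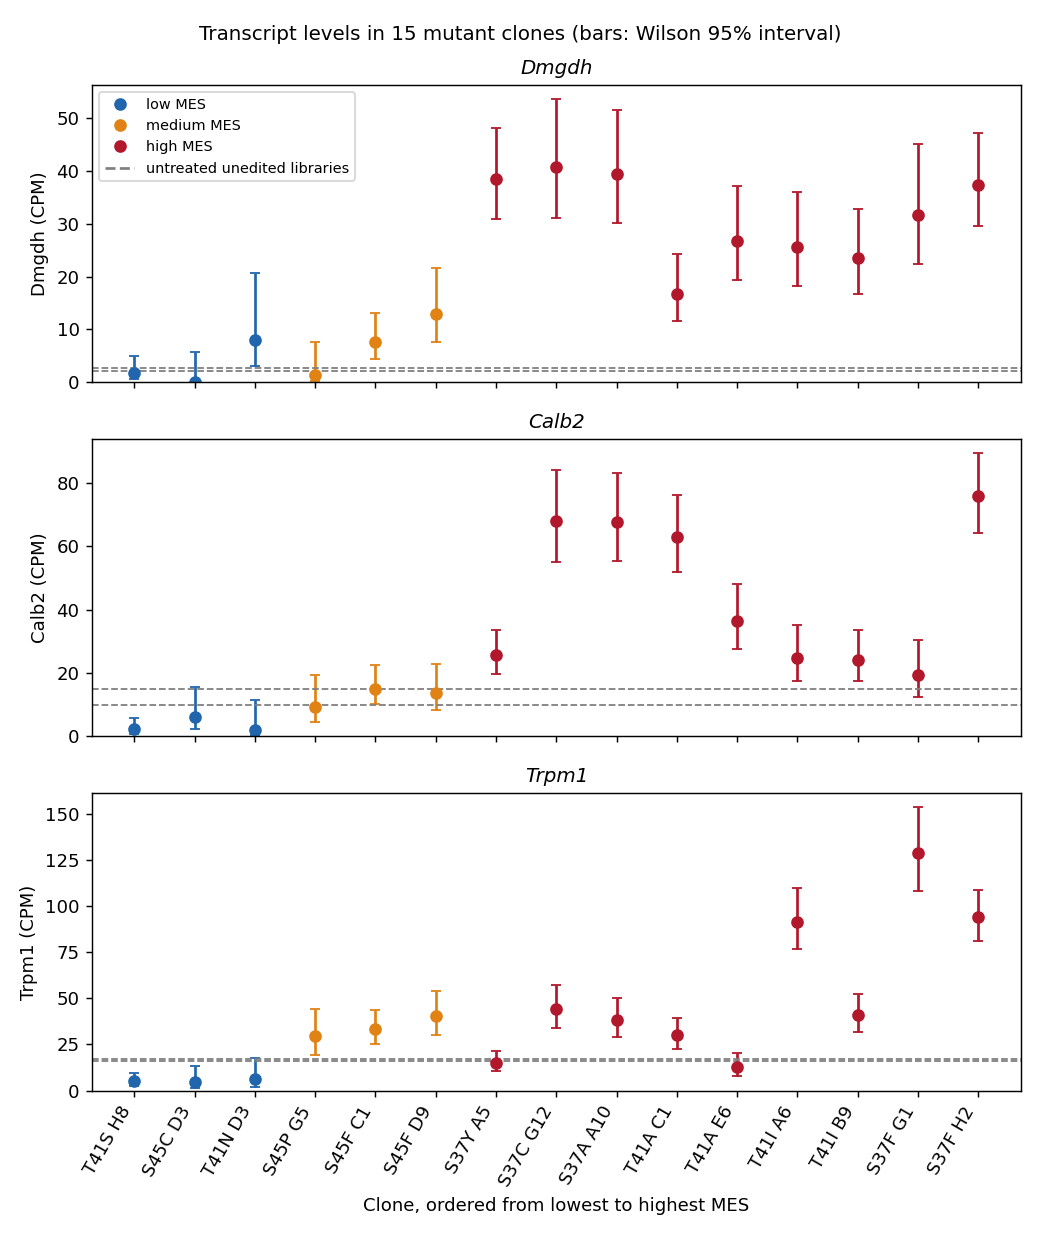
CPM of *Dmgdh*, *Calb2* and *Trpm1* in 15 clones ordered along the x axis from lowest to highest MES (clones of 1 mutation share an MES and stand in alphabetical order). Points are libraries, bars Wilson 95% counting intervals, and dashed lines the 2 untreated unedited libraries; *Dmgdh* is above 16 CPM in high-MES clones only, while *Trpm1* ranges there from 12.6 to 129 CPM.

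The 3 genes did not order the high-MES clones alike. S37C was the highest of 15 clones for *Dmgdh*, S37F clone H2 for *Calb2* and S37F clone G1 for *Trpm1*. S37Y ranked 3 for *Dmgdh*, 6 for *Calb2* and 11 for *Trpm1*. Over the 9 high-MES clones, Pearson's r of log2(CPM + 1) was 0.19 between *Dmgdh* and *Calb2*, 0.0953 between *Dmgdh* and *Trpm1* and −0.0751 between *Calb2* and *Trpm1*, given as descriptions over libraries that differ in depth. Over all 15 clones, where the choice of the genes sets a shared rise, the same values were 0.76, 0.64 and 0.65.

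Clones with the same mutation have the same MES, so the slope does not depend on which clone of a pair was higher. The spread within pairs did enter the error behind the choice, and each high-MES clone had to lie above the low-MES clones, so the ratios are given as descriptions. *Dmgdh* stayed within counting error in all 4 pairs: every exact 95% interval of the ratio of the 2 libraries included 1, and the ratio farthest from 1 was 0.586 (0.248 to 1.37) for S45F clone C1 over D9. *Calb2* differed in 2 pairs, by 3.90 times (2.41 to 6.67) for S37F clone H2 over G1 and by 1.73 times (1.22 to 2.48) for T41A clone C1 over E6. *Trpm1* differed in 3 pairs, at 0.729 (0.577 to 0.924) for S37F clone H2 over G1, 2.37 (1.34 to 4.38) for T41A clone C1 over E6 and 0.444 (0.319 to 0.612) for T41I clone B9 over A6. The S37F clones thus went in opposite directions for *Calb2* and *Trpm1*, and T41A clone C1 was higher for both. These intervals compare 2 libraries and hold no error between cultures.

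*Dmgdh* differed by codon among the high-MES clones in its values, although MES does not separate those codons. The 5 codon 37 clones held 31.7 to 40.8 CPM (37.6 ± 3.50, SD) and the 4 T41A and T41I clones 16.8 to 26.8 CPM (23.1 ± 4.46). The groups did not overlap, as was so in the same direction for 1.74% of genes tested. The comparison was added after these levels were seen, and the difference of 0.70 ± 0.17 (log2, SE) did not pass edgeR's quasi-likelihood test over all genes (adjusted p = 0.21), which called 0.0733% of 9550 genes. For *Calb2* and *Trpm1* the ranges overlapped, with differences of 0.45 ± 0.37 (adjusted p = 0.753) and 0.51 ± 0.53 (adjusted p = 0.812). Leaving out 1 clone gave differences of 0.248 to 0.856 for *Calb2* and 0.132 to 1.14 for *Trpm1*. Other genes differed between the same clones. The 5 primitive endoderm markers tested were higher in codon 37 clones by a median of 1.58, against 0.00235 over all genes. After adjustment edgeR called 0 of them and DESeq2 0. The 10 Wnt/β-catenin targets tested had a median of 0.38. Of these, edgeR called 1, *T* (1.21 ± 0.21, adjusted p = 0.0489), against 0.0733% of all genes. Their part in the *Dmgdh* values was not tested.

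The CHIR99021 libraries were not used to choose the genes, and in them *Dmgdh* and *Trpm1* rose with dose. *Trpm1* was 15.8 and 17.0 CPM at 0 µM, 71.9 and 84.6 at 2.5 µM, 151 and 149 at 5 µM, 175 and 169 at 7.5 µM and 157 and 172 at 10 µM. *Trpm1* replicates lay close together, and the level rose up to 5 to 7.5 µM without a further increase at 10 µM. *Dmgdh* was 2.72 and 2.13 CPM at 0 µM, 5.75 and 4.57 at 2.5 µM, 9.87 and 7.68 at 5 µM, 10.9 and 11.5 at 7.5 µM and 6.53 and 12.1 at 10 µM. The lower *Dmgdh* value at 10 µM rests on 2 counts in the shallowest library. *Calb2* was 9.78 and 14.9 CPM at 0 µM, 18.7 and 36.6 at 2.5 µM, 41.1 and 44.6 at 5 µM, 30.5 and 34.0 at 7.5 µM and 32.7 and 21.8 at 10 µM. *Calb2* was thus highest at 5 µM and lower at both higher doses.

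For each of the 3 genes, all 8 treated libraries lay above both untreated ones, as was so for 7.48% of the genes tested. The slope on dose in edgeR, with p-values adjusted over 10033 genes (Benjamini-Hochberg), was 0.256 ± 0.0347 log2 units per µM for *Trpm1* (SE, adjusted p = 4.99e-06) and 0.198 ± 0.047 for *Dmgdh* (adjusted p = 0.00428). *Calb2* had a slope of 0.0825 ± 0.0391 and did not pass (adjusted p = 0.179). So 2 of the 3 were called, where 5.89% of all genes rose and 6.63% fell. Without both libraries at 10 µM the *Calb2* slope was 0.16 (adjusted p = 0.0129), and without both at 0 µM it turned to −0.0516 (adjusted p = 0.719). The *Dmgdh* call rests on the untreated libraries: its slope was 0.14 (adjusted p = 0.392) without both of them and 0.18 (adjusted p = 0.0651) without 0 µM replicate 1. The *Trpm1* slope without both was 0.126 and still passed (adjusted p = 0.00299).

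Between the ends of the range, *Trpm1* was higher at 10 than at 0 µM by 3.38 ± 0.20 on the log2 scale (adjusted p = 4.12e-16) and *Dmgdh* by 2.09 ± 0.62 (adjusted p = 0.024), in the same edgeR model with dose as a factor, while 4.97% of 10674 genes were called higher. *Calb2* was higher by 1.07 ± 0.37 and did not pass (adjusted p = 0.0582). The *Dmgdh* call was lost with DESeq2 (2.06, adjusted p = 0.277) and, in edgeR, without 0 µM replicate 1 (2.29), 0 µM replicate 2 (1.99) or 10 µM replicate 2 (1.40). Within the libraries of low mitochondrial share the ratio of 10 to 0 µM was 9.22 for *Trpm1*, 3.07 for *Dmgdh* and 2.19 for *Calb2*, and within those of high share it was 10.9, 4.43 and 2.23. Each of these ratios sets 1 library over 1 library, and the low-share *Dmgdh* ratio is 2 counts over 2. Nothing states that the 2 libraries of a dose were separate cultures, so these p-values measure the spread between libraries, which may be technical.

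**Figure D2:**
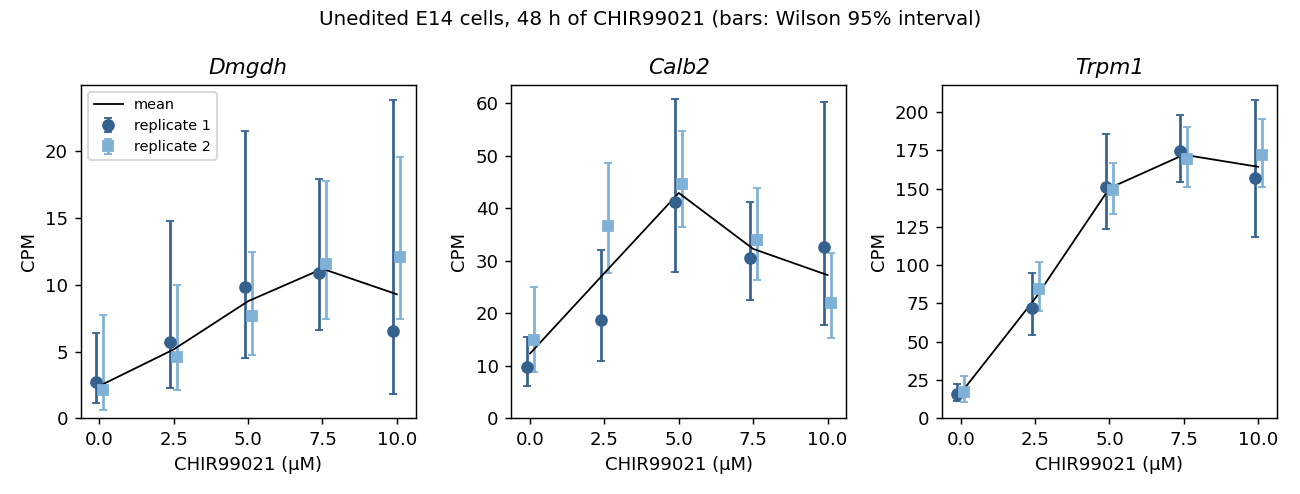
CPM of *Dmgdh*, *Calb2* and *Trpm1* against CHIR99021 dose in µM for 10 libraries of unedited E14 cells. Points are libraries (replicate 1 dark circles, replicate 2 light squares, offset for sight), bars Wilson 95% counting intervals and lines the mean of 2 libraries; *Trpm1* climbs from about 16 CPM to between 149 and 175 CPM from 5 µM on, and *Calb2* peaks at 5 µM.

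Set side by side, the high-MES clones and the top 2 doses raised different members most. *Dmgdh* averaged 31.2 ± 8.45 CPM in the 9 high-MES clones and 10.2 ± 2.52 CPM in the 4 libraries at 7.5 and 10 µM, a ratio of 3.04, and all 9 clones exceeded all 4 libraries, as was so for 14.7% of genes tested. *Trpm1* went the other way, with 54.9 ± 40.3 CPM in the clones and 168 ± 7.92 CPM at the top doses, 3.06 times higher at the top doses. All 9 clones lay below all 4 libraries, as was so for 11.9% of genes. *Calb2* averaged 44.99 ± 23.1 and 29.7 ± 5.47 CPM, and its ranges overlapped, with 5 clones above and 1 below all 4 libraries. These are levels with no test, since the clones served to choose the genes, and clones and treated cells differ in editing, cloning and mitochondrial share, whose parts cannot be told apart.

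**Figure D3:**
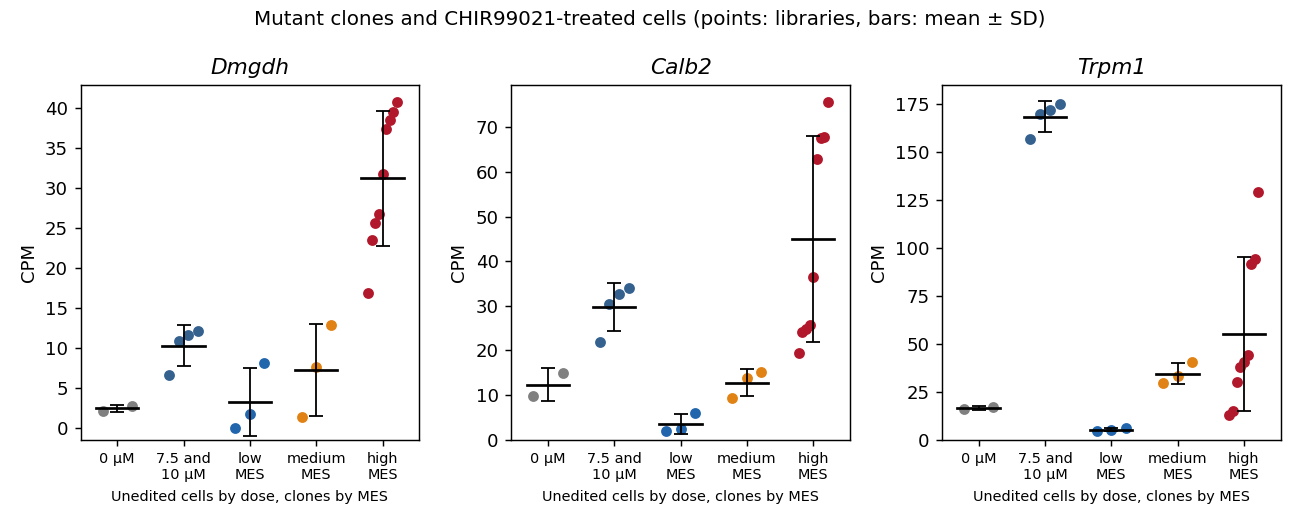
CPM of *Dmgdh*, *Calb2* and *Trpm1* in unedited cells at 0 µM (n = 2) and at 7.5 and 10 µM CHIR99021 (n = 4) and in low-, medium- and high-MES clones (n = 3, 3 and 9). Points are libraries, horizontal lines means and bars SD; high-MES clones stand above the top doses for *Dmgdh*, below them for *Trpm1* and across them for *Calb2*.

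*Bhmt2*, the head-to-head neighbour of *Dmgdh*, followed a similar course. It held 1.63 and 2.13 CPM in untreated cells (3 and 2 counts) and 1.13 to 4.04 CPM in the low-MES clones. In the high-MES clones it held 5.99 to 30.4 CPM (18.4 ± 7.84), 9.81 times untreated, a ratio limited by those few untreated counts. The *Bhmt2* slope with MES was 1.15 ± 0.30 (edgeR, adjusted p = 0.00756). Pearson's r with *Dmgdh* in log2(CPM + 1) was 0.86 over 25 libraries, 0.84 over the 15 clones, 0.83 over the 10 unedited libraries and 0.86 within the 9 high-MES clones. The unedited libraries held only 1 to 12 *Bhmt2* counts each. In S45P the values were 7.99 CPM *Bhmt2* (6 counts) and 1.33 CPM *Dmgdh* (1 count, Wilson interval 0.235 to 7.54 CPM). In T41A, *Bhmt2* was 0.269 times as high in clone C1 as in E6 (0.117 to 0.565). The *Dmgdh* ratio of these clones was 0.627 (0.368 to 1.06), in the same direction and with an overlapping interval. At the top doses *Bhmt2* reached 3.27 to 5.27 CPM, and it was too low for the dose test.

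**Figure D4:**
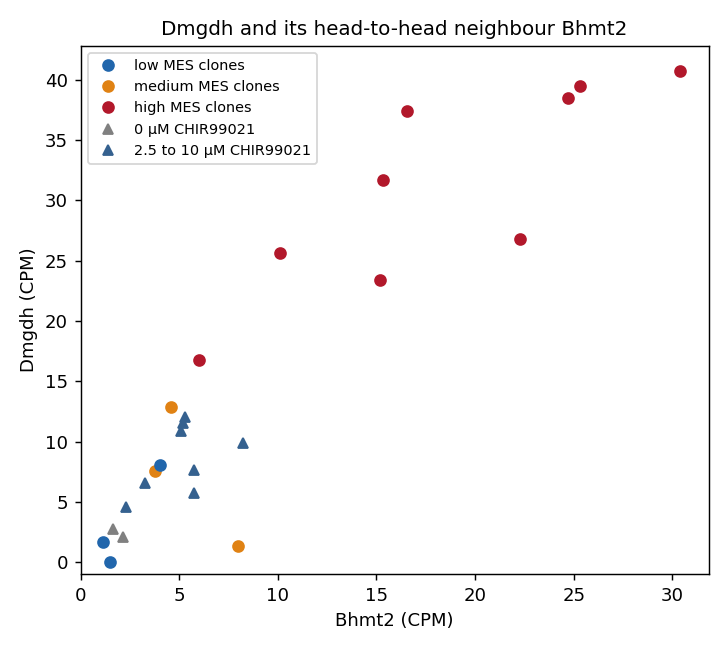
*Dmgdh* (y axis, CPM) against *Bhmt2* (x axis, CPM) in all 25 libraries, circles for clones by MES class and triangles for unedited cells. The 9 high-MES clones run from 5.99 to 30.4 CPM *Bhmt2*. The S45P clone, at 7.99 CPM *Bhmt2* and 1.33 CPM *Dmgdh*, rests on 6 and 1 counts.

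The other neighbours were mostly too low to test. *Bhmt*, 36471 bases beyond the *Bhmt2* side of *Dmgdh*, had 53 counts in all. At this depth *Bhmt* averaged 3.33 CPM in high-MES clones, 1.52 CPM at the top doses and 0.209 CPM in medium-MES clones, with 0 counts in untreated and low-MES libraries. On the other side, *Arsb* had 62 counts and *Lhfpl2* rose with dose (0.22 per µM, adjusted p = 0.00239) and did not pass with MES (−0.19, adjusted p = 0.573). Around *Calb2*, *Gm21964*, *Gm17720* and *Hydin* had 4, 0 and 14 counts, and *Cmtr2* had a slope with MES of 0.0506 (adjusted p = 0.876). Around *Trpm1*, *Klf13* rose with dose (0.0804, adjusted p = 0.00107) with a MES slope of 0.18 (adjusted p = 0.0752), *Mtmr10* passed in neither, and *E030018B13Rik* and *Fan1* had 0 and 18 counts. Antisense and nested genes in the members had at most 2 counts in all. The strand setting of the counting is not given in the sources used here, so reads of such partners could not be told apart from the members'.

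Of 25 other choline and one-carbon enzymes, 20 were tested with MES, of which 8 rose and 2 fell, against 9.91% rising and 22.9% called in either direction over all genes, and the median slope was 0.0374 against 0.00246. The steepest of the 8 in edgeR were *Bhmt2*, the neighbour described above (1.15, adjusted p = 0.00756), and *Aldh1l1* (0.77, adjusted p = 0.005). *Shmt2* (0.44, adjusted p = 0.00119), *Amt* (0.28, adjusted p = 0.0229), *Mthfd1l* (0.26, adjusted p = 0.0396) and *Shmt1* (0.26, adjusted p = 0.0139), which serve glycine cleavage and folate one-carbon transfer, also rose. With dose, 18 were tested, 0 rose (2 at an unadjusted p under 0.05, 0 by DESeq2) and 3 fell by edgeR. Over all genes 5.89% rose and 6.63% fell with dose. None of *Shmt2*, *Amt*, *Mthfd1l* and *Shmt1* passed with dose. *Chdh*, which starts the conversion of choline to betaine, and *Sardh*, whose enzyme acts after that of *Dmgdh*, were nearly absent, with 5 and 3 counts in all 25 libraries.

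Of 30 other EF-hand calcium-binding proteins, 20 were tested with MES, and 2 rose and 8 fell, with a median slope of −0.14 (1005 of all 10145 genes tested rose and 1315 fell). *S100a6* (−1.12, adjusted p = 3.88e-05) and *S100a10* (−0.88, adjusted p = 3.72e-05), small calcium sensors of the S100 family, fell with MES, opposite to *Calb2*. *S100a1*, of the same family, rose in edgeR with MES (0.92, adjusted p = 0.0124) and with dose (0.109 per µM, adjusted p = 0.0163). With dose, 6 of 20 rose, among them *S100a6* (0.11 per µM, adjusted p = 0.000272), and 3 fell, among them the calmodulin genes *Calm2* (−0.0372, adjusted p = 0.0303) and *Calm3* (−0.0499, adjusted p = 0.00931), against 5.89% rising and 6.63% falling over all genes. The closest relatives of calretinin were at or near 0, with 3 counts of *Calb1* and 1 of *Scgn*, as was *Pvalb* with 2.

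Of 27 other TRP channel genes, 5 had 0 counts in all libraries and only 4 were high enough to test (*Trpm4*, *Trpm7*, *Mcoln1* and *Pkd2*, named after their values were seen). By edgeR and by DESeq2 0 of these 4 were called with dose and 0 with MES. Over all genes edgeR called 5.89% rising and 6.63% falling with dose, and 22.9% in either direction with MES. At an unadjusted p under 0.05 the edgeR counts of these 4 were 0 with dose and 1 with MES, the latter *Pkd2* (MES slope −0.31, adjusted p = 0.0693). *Trpm3*, the channel closest to *Trpm1*, had 5 counts. Of the MiT/TFE factors, which bind M-box and E-box letters, *Tfe3* fell with dose in edgeR (−0.0514, adjusted p = 0.0459), though not in DESeq2, and with MES (−0.21, adjusted p = 0.0334). *Mitf*, the melanocyte regulator of *Trpm1*, ran from 1.69 to 12.8 CPM over the untreated, top-dose, low-MES and high-MES libraries, with a MES slope of 0.41 that did not pass (adjusted p = 0.142).

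Of 13 Wnt/β-catenin targets, all 11 tested rose with dose and 3 of 10 tested rose with MES, by a median of 0.26 per µM and 0.25 per 10000 MES units, against 5.89% and 9.91% of all genes. *Cdx1* (0.30 per µM, adjusted p = 8.22e-09, and 1.33 with MES, adjusted p = 2.08e-06) was steep in both, as *Trpm1* was. *Tbx3* (0.11, adjusted p = 0.000653, and 1.01, adjusted p = 0.000177) was steeper with MES. *Axin2*, the feedback inhibitor of the pathway, rose by 0.28 per µM (adjusted p = 1.26e-07) and 0.44 with MES (adjusted p = 0.0323). *Sp5* rose with dose by 0.26 (adjusted p = 2.49e-06), and its MES slope of 0.27 did not pass (adjusted p = 0.113).

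Most markers of melanocytes, retinal ON bipolar cells and hepatocytes were at or near 0, apart from *Pmel* and *Mitf*. Of 9 melanocyte markers, *Tyr*, *Tyrp1*, *Dct*, *Slc45a2* and *Oca2* had 0 counts throughout, and the summed level was 27.2 to 36.1 CPM in untreated, 19.6 to 29.4 at the top doses and 6.69 to 34.8 in high-MES clones, most of it *Pmel*. The 8 retinal ON bipolar markers, among them *Grm6* and *Nyx*, summed to at most 13.6 CPM in any clone group and to 3.46 to 13.1 CPM at the top doses, where *Trpm1* alone was 157 to 175 CPM. Of 8 hepatocyte markers, *Alb*, *Afp*, *Ttr* and *Serpina1a* had 0 counts, and the sum was at most 3.20 CPM. The sum of the 4 mesothelium markers was highest in low-MES clones (22.2 to 50.3 CPM), where *Calb2* was lowest, and 4.09 to 16.3 CPM in high-MES clones. Only 1 of these 4 was high enough to test, and it fell with MES (−1.30) and with dose (−0.173 per µM). The 10 neuron markers summed to 581 to 598 CPM in untreated, 551 to 614 at the top doses, 640 to 782 in low-MES and 457 to 818 in high-MES clones, most of it *Stmn2* (513 CPM on average), with *Dcx* at 1 count in all. Of 5 neuron markers tested, 1 rose and 2 fell with MES and 1 rose and 2 fell with dose. Over all genes, 1005 of 10145 rose and 1315 fell with MES, and 5.89% rose and 6.63% fell with dose. *Gad1*, which makes the transmitter GABA, rose in both (0.54, adjusted p = 0.0172, and 0.111 per µM, adjusted p = 0.00265), and *Tubb3*, a neuronal tubulin, fell in both (−0.65, adjusted p = 0.0113, and −0.154, adjusted p = 0.000338). Their part in the members' levels was not tested.

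Of 8 undifferentiated ES cell markers 5 rose with MES and 0 fell, by edgeR, by DESeq2 and at an unadjusted p under 0.05, against 9.91% rising over all genes, and the sum was 1823 to 2821 CPM in low-MES, 4183 to 5471 in high-MES and 4432 to 4476 in untreated libraries. *Klf4* (0.84, adjusted p = 3.16e-05), *Dppa5a* (0.58, adjusted p = 0.000193) and *Tdgf1* (0.32, adjusted p = 0.00523) rose, while *Nanog* had 0.24 (adjusted p = 0.15), *Pou5f1* 0.22 (adjusted p = 0.246) and *Sox2* 0.0473 (adjusted p = 0.764). With dose 1 of the 8 rose, *Klf4*, and 5 fell, against 5.89% and 6.63% of all genes. Of 6 primitive endoderm markers, 5 were tested and *Lama1* alone rose with MES (0.73, adjusted p = 0.0207), and the sum reached 650 CPM in 1 high-MES clone. The part of either group in the members' levels was not tested.

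The genes most alike to each member were named by Pearson's r of log2(CPM + 1) over 25 libraries, among 7091 genes averaging at least 20 CPM. For *Dmgdh* they were *Asns* (asparagine synthetase, r = 0.89), *Porcn* (which acylates Wnt ligands, r = 0.88) and *Klf4* (r = 0.88), each at 0.86 or more in the 15 clones and in the 10 unedited libraries apart, and at 0.53, 0.81 and 0.31 within the 9 high-MES clones. For *Trpm1* they were *Renbp* (0.91), *Gss* (glutathione synthetase, 0.90) and *Qars* (glutaminyl-tRNA synthetase, 0.89), at 0.92, 0.84 and 0.62 within the 9 high-MES clones. For *Calb2* they were *Zfp263* (0.86), *Socs3* (0.85) and *Ndufb11* (0.85), which were at 0.94, 0.91 and 0.89 in the clones at 0.62, 0.62 and 0.40 within the high-MES clones, and at 0.19, 0.52 and 0.41 in the unedited libraries. Between members, r over the unedited libraries was 0.93 for *Dmgdh* and *Trpm1*, 0.83 for *Calb2* and *Trpm1* and 0.66 for *Dmgdh* and *Calb2*, where all points share a dose series of 5 steps.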

How the data were processed

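The deposited values are deduplicated counts by gene. The authors trimmed reads, took out UMIs and ribosomal reads, aligned to mm10 with RNA STAR, collapsed duplicates and counted with featureCounts 2.0.1 (version per the submitters' processing notes); the annotation release is not given in the sources used here. Names came from GENCODE M21 by Ensembl ID without version (48058 of 48440 matched), motifs and promoters from RefSeq GRCm38.p6. Levels are CPM, scaled to the column total. Of the 48440 genes, 24146 had no count.

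Slopes on dose, on MES per 10000 units and the contrast of 10 with 0 µM used edgeR 4.0.16 (TMM, filterByExpr with minimum count 10, quasi-likelihood F-test, adjusted p under 0.05). MES was used as a covariate only. Likeness used a pseudocount of 1 CPM. Confidence intervals are 95% (Wilson for a library, conditional exact for a ratio of 2 libraries). Simulated data at these library sizes held 200 genes changed by 2 log2 units over the range, with 1 spread for all genes. On them the dose step recovered 98.5%, the MES step 98%, the 10 against 0 µM step 91% and the codon step 100%. Smaller changes, such as the members' codon differences, were not simulated, so these shares do not give the power for them.

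The members and the gene lists were chosen with earlier results of these data known. Named genes were the members, *Ctnnb1*, up to 4 genes per list that passed with dose or MES by mean CPM, 2 protein-coding neighbours on each side and 3 most alike genes. Genes at or near 0 and untested list members that are named were added after their values were seen, as were *Aldh1l1* and *S100a1*. Alternatives were RLE scaling, DESeq2 1.42.0, no filter, a replicate block, a mitochondrial share term, other dose ranges, ranks of MES and leaving out libraries.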

Additional observations from a re-analysis of the deposited data

How the results depend on the processing

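Of 353 values under alternatives, 301 were labelled as unchanged. For a tested slope or difference this meant the same direction and the same side of the threshold. Member slopes on MES and ratios to untreated cells, which carry no test, had to stay within their stated spread. Numbers of genes called were judged by the size of their fold change. The total is no measure of robustness. It includes slopes on MES, which served to choose the genes, and the fit on ranks of dose, which repeats the main fit. *Trpm1* kept its direction and its side of the threshold in the dose slope and at 10 against 0 µM under every alternative run. Its dose slope was nevertheless 0.126 without both libraries at 0 µM (0.256 with all). Depth limits *Dmgdh* most, with 5 and 2 untreated counts. Ranks of the dose, which is evenly spaced, gave the same fit as µM.

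With the filter on low counts off, the *Calb2* dose slope was 0.0817 and passed (adjusted p = 0.0472, edgeR). Without both libraries at 0 µM, the *Calb2* slope was −0.0516, the *Dmgdh* slope 0.14, and 63 genes rose and 58 fell with dose; without both at 10 µM the *Calb2* slope was 0.16. Leaving out 1 library gave dose slopes of 0.18 to 0.22 for *Dmgdh*, 0.0164 to 0.139 for *Calb2* (past the threshold at 0.139, adjusted p = 0.024, without 10 µM replicate 2) and 0.20 to 0.30 for *Trpm1*, with 252 to 625 genes rising and 275 to 704 falling (591 and 665 with all); the counts moved by over 1.5 times without 0 µM replicate 1 (252 and 275) or 2 (364 and 415). For 10 against 0 µM, DESeq2 called 202 genes higher and 157 lower (530 and 544 by edgeR), with *Dmgdh* at 2.06, and a term for the mitochondrial share put *Calb2* at 1.05 (adjusted p = 0.0356). Leaving out 1 library gave 1.40 to 2.29 for *Dmgdh*, 0.69 to 1.54 for *Calb2*, 161 to 583 genes higher and 99 to 589 lower; *Calb2* passed without 0 µM replicate 2 (1.32) or either library at 2.5 µM (1.07 and 1.07). For MES, the *Dmgdh* slope was 1.13 on ranks of MES and 1.12 without S45C and T41S, the clones farthest from the median, where 124 genes rose and 261 fell (1005 and 1315 with all); leaving out 1 clone gave 1.30 to 1.62 for *Dmgdh*, 499 to 1084 genes rising and 700 to 1370 falling, the lowest without T41S. Between codon 37 and the T41A and T41I clones, 2 genes were higher and 5 lower; without the filter 78 and 48, with DESeq2 14 and 15, and with 1 clone left out 0 to 2 and 0 to 5. The causes were not tested.

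Replicate numbers did not pair the libraries: correlations of same-numbered deviations ran from −0.204 to 0.160 across doses and −0.180 to 0.147 across clones. With the replicate block, the dose slopes were 0.199 (*Dmgdh*), 0.0756 (*Calb2*) and 0.257 (*Trpm1*), with 538 genes rising and 602 falling, and 4 genes were higher in codon 37 clones, where the *Calb2* and *Trpm1* differences were 0.156 and 0.767. The block changed no call of a member.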
